A study of Homo sapiens with 21 samples.

Results

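The genes described here are 10 genes of glucose uptake and glycolysis, chosen by symbol from the 34021 gene rows of an RNA-seq table of H1975 cells. All 10 were found, and all 10 passed the filter on low values that left 13775 genes for testing. The uptake and upper steps are SLC2A1, HK1, HK2, PFKP and ALDOA, and the lower steps are GAPDH, PGK1, ENO1, PKM and LDHA. H1975 is an established human lung adenocarcinoma line (labelled NSCLC, non-small cell lung cancer) that carries activating and resistance mutations of the growth factor receptor EGFR.

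Glycolysis converts glucose into pyruvate in the cytosol. Glucose enters through facilitative transporters of the SLC2A family, hexokinases trap it by phosphorylation, phosphofructokinase commits it, and aldolase splits the sugar into triose phosphates. The lower steps, from GAPDH onwards, yield ATP and NADH, and lactate dehydrogenase regenerates NAD+ by turning pyruvate into lactate. Many tumour cells keep this route active in the presence of oxygen, and EGFR and IGF1R signalling are both known to promote glucose use.

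The table covered 3 groups of 3 libraries, all cultured for 8 days. DMSO+EV cells had wild-type genotype in the labels and received the solvent DMSO with EV, a term the labels do not spell out. OL+EV cells, also labelled wild type, received osimertinib at 500 nM, which blocks mutant EGFR, together with linsitinib at 500 nM, which blocks IGF1R and the insulin receptor. EV stands in the title of that group and not in its treatment label. OC cells received 500 nM osimertinib and overexpressed cIGF1R, a circular RNA named after IGF1R. Osimertinib was not given with EV alone in these libraries, and in OC the drug and the overexpression cannot be told apart. OC and OL+EV differ in both linsitinib and cIGF1R. EV stands in the titles of DMSO+EV and OL+EV and not in that of OC, so OC may differ from both in EV as well. The series as a whole concerns circular RNAs after treatment with EGFR inhibitors.

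Levels are FPKM, fragments scaled to transcript length and to the mapped fragments of the library, and their sums over genes lay between 338034 and 474156 per library. Read depth is unknown, because the values showed no steps of whole reads. Nothing in the labels ties the 3 libraries of a group to independent cultures, and p-values therefore measure only the spread between these libraries. The IGF1R row, which cannot separate circular from linear transcripts, read 3.76, 4.41 and 4.23 FPKM in DMSO+EV, 4.41, 3.56 and 3.73 in OL+EV, and 81.4, 82.3 and 101 in OC. All 6 epithelial markers were at 1 FPKM or more, with summed levels of 11203 to 15201 FPKM over the 9 libraries. Among them CDH1 ran from 32.4 to 50.8 FPKM in DMSO+EV, 44.9 to 53.6 in OL+EV and 103 to 131 in OC. KRT7 went the other way in OC, at 2156 to 2512, 2133 to 2405 and 1644 to 1852 FPKM in the same order. In OC, KRT8 and KRT19 were also above DMSO+EV, while EPCAM and KRT18 overlapped it. Markers of other cell types were low but moved with the groups. The 5 endothelial markers in the table summed to 3.55 to 4.14 FPKM in DMSO+EV, 0.197 to 0.240 in OL+EV and 0.783 to 0.972 in OC, and CDH5 among them ran from 3.18 to 3.68, 0.0323 to 0.160 and 0.425 to 0.520 FPKM. The 5 fibroblast markers in the table summed to 3.38 to 3.75, 3.35 to 3.71 and 5.60 to 6.10 FPKM. Nearly all of this was COL1A1, at 3.34 to 3.70, 3.20 to 3.49 and 5.51 to 6.04 FPKM. The 7 leukocyte markers summed to 1.90 to 2.35, 2.47 to 3.30 and 2.53 to 4.48 FPKM. Of these, ITGAM was at 1.05 to 1.31 in OL+EV and at most 0.412 elsewhere. CD14 had its highest mean in OC, at 1.27 to 1.96, 0.925 to 2.14 and 2.11 to 3.99 FPKM. The part of these markers in the results was not tested. Genes of mitochondrial DNA took 20.3 to 30.4% of the total in DMSO+EV, 20.4 to 25.6% in OL+EV and 6.08 to 7.28% in OC. Transcripts of RNA polymerase III summed to 1109 FPKM in DMSO+EV replicate 2 and to 4.24 to 122 FPKM in the other 8 libraries. The labels of all samples share an extraction protocol that describes 3 days of treatment, removal of dead cells and digestion with RNase R, which degrades linear RNA. Whether the RNA-seq libraries were made that way was not tested.

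The promoters of HK2, ENO1, LDHA and ALDOA are printed because HK2 rose in OC, ENO1 and LDHA fell in both treated groups, and ALDOA passed the test in neither. Each is the 250 bases before the gene's outermost annotated start, from RefSeq on GRCh38.p14, written 5′ to 3′ on the gene's strand. Capitals mark ACGTG, the core of the site bound by hypoxia-inducible factors, and GCGTG, a variant of it, on either strand (CACGT and CACGC on the opposite strand).
HK2, chr2:74833877-74834126, plus strand: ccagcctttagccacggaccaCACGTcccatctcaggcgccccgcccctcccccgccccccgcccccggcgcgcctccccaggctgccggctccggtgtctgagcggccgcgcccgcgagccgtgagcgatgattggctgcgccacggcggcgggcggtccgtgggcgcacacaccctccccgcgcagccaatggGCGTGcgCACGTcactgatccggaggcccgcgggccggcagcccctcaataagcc
ENO1, chr1:8878687-8878936, minus strand: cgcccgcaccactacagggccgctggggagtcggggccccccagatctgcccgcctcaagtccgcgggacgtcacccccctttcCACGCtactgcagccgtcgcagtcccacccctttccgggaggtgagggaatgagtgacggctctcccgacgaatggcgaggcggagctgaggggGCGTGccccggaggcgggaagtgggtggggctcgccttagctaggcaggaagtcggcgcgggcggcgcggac
LDHA, chr11:18394313-18394562, plus strand: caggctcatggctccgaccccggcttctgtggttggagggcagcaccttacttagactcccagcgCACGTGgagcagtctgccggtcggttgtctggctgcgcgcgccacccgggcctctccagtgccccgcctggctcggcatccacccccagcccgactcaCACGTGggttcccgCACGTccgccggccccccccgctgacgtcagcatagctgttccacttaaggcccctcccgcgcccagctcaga
ALDOA, chr16:30064029-30064278, plus strand: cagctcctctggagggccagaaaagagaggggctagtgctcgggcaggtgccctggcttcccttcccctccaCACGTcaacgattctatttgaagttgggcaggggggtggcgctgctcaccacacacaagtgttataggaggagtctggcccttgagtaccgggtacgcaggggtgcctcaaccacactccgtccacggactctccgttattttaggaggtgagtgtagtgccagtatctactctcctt

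HK2 held ACGTG at 229 and 48 bases and GCGTG at 55 bases before its start. ENO1 held GCGTG at 166 and 72 bases. LDHA held 5 matches of ACGTG, 4 of which came from the palindrome CACGTG, the E-box bound by MYC and related factors, read on both strands at 2 positions. ALDOA held ACGTG at 178 bases. For GAPDH, PFKP and PKM the RefSeq promoter table uses a start inside the gene's annotated bounds, so that their windows lie within the gene and not before it. The window of ALDOA lies before ALDOA but within another annotated gene, LOC112694756 (chr16:30053151-30070414). Over the 10 windows, ACGTG stood in 5, GCGTG in 3 and either of them in 6, whereas SLC2A1, HK1, PFKP and PKM had none in this window. Among all 27305 RefSeq promoters of the same length, 18.6% held ACGTG, 31.9% GCGTG and 43.1% either. CACGTG was found in the windows of GAPDH and LDHA and in 6.46% of all promoters. These matches describe letters in the window and not binding.

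In DMSO+EV, GAPDH was by far the most abundant of the 10 transcripts at 4573 ± 384 FPKM (SD, n = 3), followed by ENO1 at 860.3 ± 105 and ALDOA at 839 ± 69.7, whose ranges overlapped. LDHA at 599 ± 88.7 and PKM at 540.4 ± 57.3 FPKM overlapped as well. PGK1 at 79.2 ± 14.99, HK1 at 63.5 ± 6.40 and PFKP at 62.6 ± 6.93 FPKM formed a lower tier in which neighbours overlapped. SLC2A1 was below them at 38.8 ± 6.01 FPKM, and HK2 was the lowest at 3.20 ± 0.405. The order changed with treatment. ENO1 stood in place 2 in DMSO+EV, 4 in OL+EV and 5 in OC, where ALDOA and PKM were above it. GAPDH was first and HK2 last in each group. The summed level of the 10 transcripts was 7659 ± 654 FPKM in DMSO+EV, 5472 ± 379 in OL+EV and 3800 ± 212 in OC. Without GAPDH the sums ran from 2708 to 3325 FPKM in DMSO+EV, from 1775 to 2057 in OL+EV and from 1914 to 2084 in OC, where the treated groups overlapped. In bulk RNA, fewer cells that express a gene and less of its RNA per cell cannot be told apart.

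**Figure D1:**
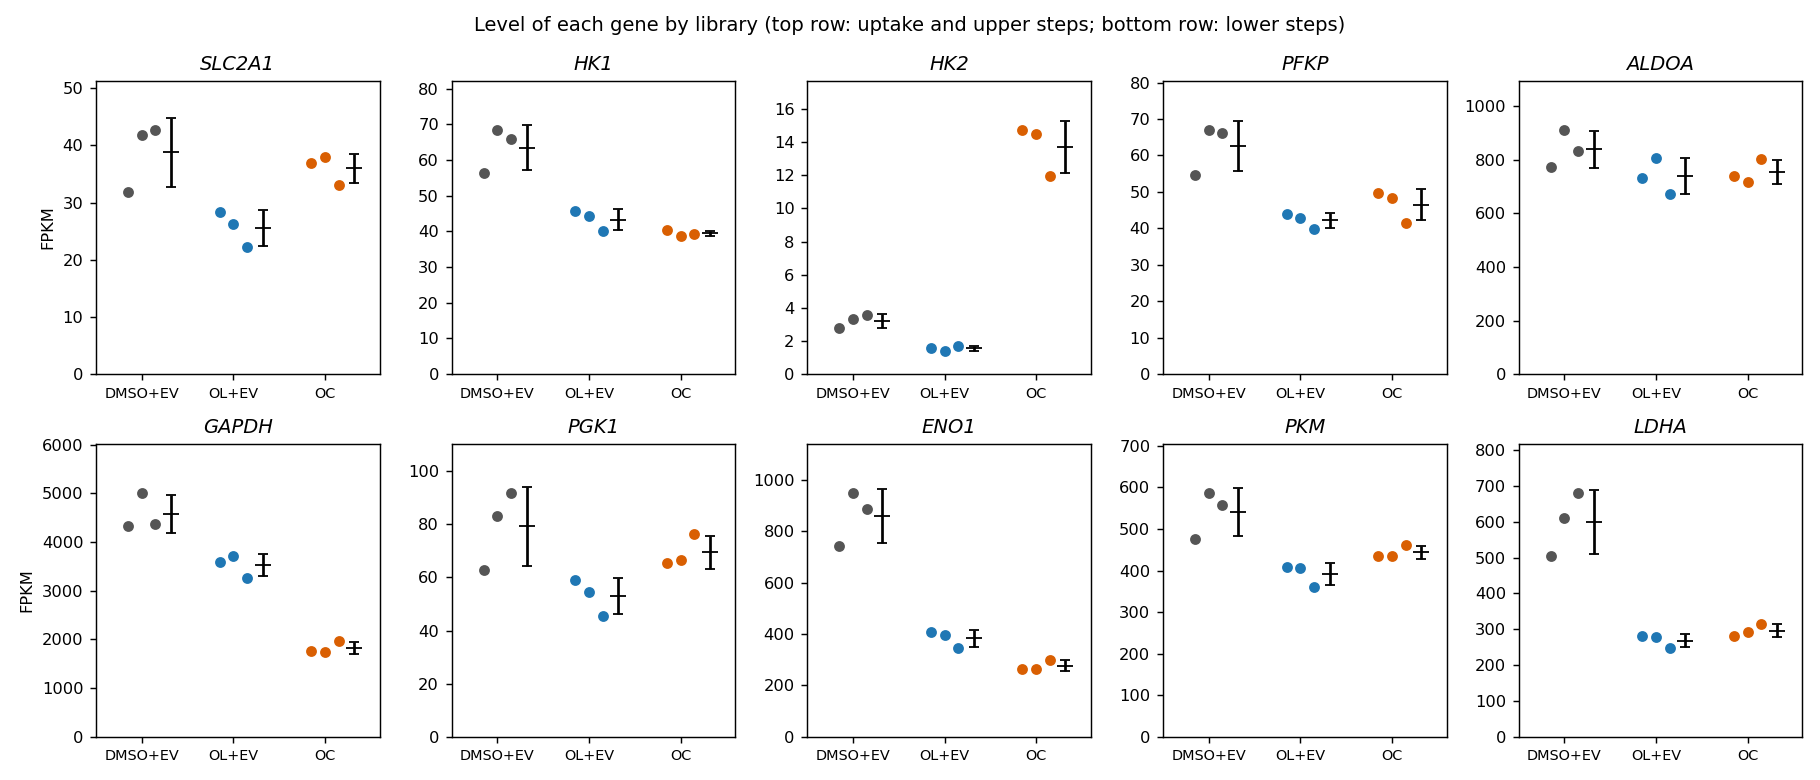
Level of each of the 10 genes in FPKM (vertical axes, each starting at 0 with its own scale) in the 3 libraries of DMSO+EV, OL+EV and OC; points are libraries and bars the mean ± SD. HK2 stands at 11.9 to 14.7 FPKM in OC against at most 3.54 elsewhere, while ENO1 and LDHA lie lower in both treated groups than in DMSO+EV.

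Most of the 10 genes were lower in the cells given both inhibitors. In OL+EV against DMSO+EV, 9 of the 10 genes fell and none rose (limma, adjusted p under 0.05 over all tested genes), and the same 9 did not overlap between the groups. Of all tested genes, 52.6% were called in this comparison, 29.0% as higher and 23.5% as lower. Groups did not overlap for 61.9% of all tested genes, with 34.3% above and 27.6% below DMSO+EV. The median log2 fold change of the 10 was -0.56, against 0.053 over all tested genes. Fold changes here and below are on the log2(FPKM + 1) scale, which understates those of low genes.

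At the point of entry, SLC2A1, the widely expressed glucose transporter GLUT1, measured 31.9, 41.8 and 42.7 FPKM in DMSO+EV, 28.4, 26.2 and 22.2 in OL+EV, and 37.0, 38.0 and 33.1 in OC. All OL+EV libraries were below all others, and OC overlapped DMSO+EV. SLC2A1 fell by 0.58 on the log2 scale in OL+EV (SE 0.12, limma adjusted p = 0.00166). OC was higher than OL+EV by 0.48 (adjusted p = 0.00475). OC against DMSO+EV gave -0.095 (95% interval -0.37 to 0.17, adjusted p = 0.512).

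The hexokinase isoforms HK1 and HK2 moved in opposite directions in OC against DMSO+EV. HK1, the constitutive isoform, measured 56.2, 68.4 and 65.7 FPKM in DMSO+EV, 45.6, 44.3 and 40.0 in OL+EV, and 40.3, 38.8 and 39.1 in OC. Both treated groups were below DMSO+EV and overlapped each other. HK1 fell by 0.54 in OL+EV (SE 0.097, limma adjusted p = 0.000419) and by 0.67 in OC (adjusted p = 3.641e-05). HK2, the inducible isoform, measured 2.75, 3.30 and 3.54 FPKM in DMSO+EV, 1.57, 1.39 and 1.68 in OL+EV, and 14.7, 14.5 and 11.9 in OC. The 3 groups did not overlap, with OL+EV lowest and OC highest. HK2 fell by 0.72 in OL+EV (SE 0.11, adjusted p = 0.000113) and rose by 1.81 in OC against DMSO+EV (SE 0.11, adjusted p = 7.343e-09), a 4.29-fold ratio of mean FPKM. Against OL+EV the difference of OC was 2.53 (adjusted p = 4.655e-10), an 8.87-fold ratio. As HK2 is low, its log2 fold change in OC against OL+EV depends on the pseudocount, and it ran from 1.51 to 3.07 over the alternatives.

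The isoforms were also compared as shares. HK2 made up 4.67, 4.61 and 5.11% of HK1 and HK2 together in DMSO+EV, 3.33, 3.05 and 4.03% in OL+EV, and 26.8, 27.2 and 23.4% in OC. The summed level of HK1 and HK2 was 66.7 ± 6.75 FPKM in DMSO+EV, 44.8 ± 2.86 in OL+EV and 53.1 ± 1.97 in OC. The sum in OC lay between the other groups without overlap, and HK1 was the more abundant transcript in all 9 libraries. HKDC1, a further hexokinase family member, was lower in both treated groups, at 17.7, 7.67 and 9.96 FPKM in the same order (limma adjusted p = 1.497e-07 and 2.093e-06 against DMSO+EV).

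PFKP, the platelet-type subunit of phosphofructokinase, measured 54.6, 67.0 and 66.2 FPKM in DMSO+EV, 43.9, 42.9 and 39.8 in OL+EV, and 49.7, 48.3 and 41.6 in OC. Both treated groups were below DMSO+EV and overlapped each other. PFKP fell by 0.55 in OL+EV (SE 0.11, limma adjusted p = 0.000689) and by 0.42 in OC (adjusted p = 0.00326). Its share of the summed PFKP, PFKL and PFKM was 58.9 ± 1.65% in DMSO+EV, 45.4 ± 0.788% in OL+EV and 50.5 ± 2.89% in OC. The liver-type subunit PFKL was higher in both treated groups, at 35.5 and 35.8 against 28.8 FPKM, and the muscle-type PFKM was lower in OC, at 9.65 against 14.7.

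ALDOA, the main aldolase of muscle and most tumours, passed the test in no comparison. It measured 773, 912 and 832 FPKM in DMSO+EV, 733, 808 and 674 in OL+EV, and 740, 717 and 804 in OC, and all groups overlapped. The log2 differences were -0.18 in OL+EV (95% interval -0.44 to 0.066, limma adjusted p = 0.198), -0.15 in OC (-0.40 to 0.098, adjusted p = 0.256) and 0.032 between OC and OL+EV (adjusted p = 0.831). Under quantile normalisation ALDOA was higher in OC than in DMSO+EV by 0.39 (adjusted p = 0.00149) and than in OL+EV by 0.44 (adjusted p = 0.000817), within ranges up to 0.684 and 0.894. RefSeq places a second gene, LOC112694756, at chr16:30053151-30070414, across nearly all of ALDOA (chr16:30064279-30070420), so reads of the pair may have been split. That row measured 84.4, 94.2 and 96.2 FPKM in DMSO+EV, 32.7, 3.71 and 19.7 in OL+EV, and 5.16, 28.7 and 35.2 in OC. With both rows summed, the level was 931 ± 74.3, 757 ± 59.2 and 777 ± 54.1 FPKM. The sum fell by 0.30 in OL+EV (adjusted p = 0.0445) and gave -0.26 in OC (adjusted p = 0.0601), so the absence of a call for ALDOA in OL+EV depends on how that row is counted.

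Among the lower steps, GAPDH, the enzyme that oxidises glyceraldehyde 3-phosphate, measured 4328, 5015 and 4376 FPKM in DMSO+EV, 3590, 3717 and 3271 in OL+EV, and 1763, 1751 and 1959 in OC. The 3 groups did not overlap, and OC was the lowest. GAPDH fell by 1.32 in OC (SE 0.12, limma adjusted p = 5.848e-07), to 0.399 of the DMSO+EV mean, and was lower than in OL+EV by a log2 difference of -0.95 (adjusted p = 2.562e-05). In OL+EV it fell by 0.37 (adjusted p = 0.0223). That last call ended without DMSO+EV replicate 2 (adjusted p = 0.1004), without OL+EV replicate 1 (0.0621) and without OL+EV replicate 3 (0.0967), within a range of 0.000949 to 0.131 over all alternatives. Under quantile normalisation, which gives every library the same set of values, the difference between OC and OL+EV was 0.020 (adjusted p = 0.895), and GAPDH ranked 14 by mean level in both of these groups.

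The ratio of GAPDH to ALDOA within a library does not depend on the scaling of that library. It was 5.60, 5.50 and 5.26 in DMSO+EV, 4.90, 4.60 and 4.85 in OL+EV, and 2.38, 2.44 and 2.44 in OC. The 3 groups were apart with the ALDOA row alone. LOC112694756, with means of 91.6 FPKM in DMSO+EV, 18.7 in OL+EV and 23.0 in OC, was left out. Adding it to ALDOA would lower the ratio most in DMSO+EV and so narrow the gap to OL+EV. The sum was 858, 1006 and 928 FPKM in DMSO+EV and 765, 812 and 694 in OL+EV. The ratio of GAPDH to this sum was not computed, so the separation of DMSO+EV from OL+EV holds for the ALDOA row only. A ratio of this kind shows that the 2 transcripts changed unequally and not which of them changed. The 43 pseudogene rows of GAPDH in the table summed to 0.741 to 1.40% of its level.

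PGK1, the first ATP-yielding enzyme, measured 62.7, 83.0 and 92.0 FPKM in DMSO+EV, 59.0, 54.6 and 45.5 in OL+EV, and 65.5, 66.4 and 76.5 in OC. OL+EV was below both other groups, which overlapped. PGK1 fell by 0.56 in OL+EV (SE 0.14, limma adjusted p = 0.00449), and OC was higher than OL+EV by 0.39 (adjusted p = 0.0291). OC against DMSO+EV gave -0.17 (95% interval -0.48 to 0.13, adjusted p = 0.289). The call between OC and OL+EV ended without OL+EV replicate 2 (adjusted p = 0.0521), OL+EV replicate 3 (0.132) or OC replicate 3 (0.0964), within a range of 0.00685 to 0.132. Without DMSO+EV replicate 1, PGK1 fell by 0.33 in OC (adjusted p = 0.0322, the lowest in a range up to 0.741).

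ENO1, the enolase that makes phosphoenolpyruvate, had the most negative log2 fold change of the 10 genes in both treated groups, in OL+EV close to that of LDHA. It measured 745, 951 and 885 FPKM in DMSO+EV, 407, 397 and 344 in OL+EV, and 264, 265 and 301 in OC. The 3 groups did not overlap, with OC lowest. ENO1 fell by 1.16 in OL+EV (SE 0.12, limma adjusted p = 3.996e-06) and by 1.63 in OC (SE 0.12, adjusted p = 6.166e-08), to 0.445 and 0.322 of the DMSO+EV mean. OC against OL+EV gave -0.47 (adjusted p = 0.00508). The ratio of ENO1 to ALDOA, again with the ALDOA row alone, was 0.963, 1.04 and 1.06 in DMSO+EV, 0.556, 0.491 and 0.510 in OL+EV, and 0.357, 0.369 and 0.374 in OC. The neuronal enolase ENO2 was at 17.3, 19.3 and 9.71 FPKM in the same order of groups.

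PKM, the pyruvate kinase of most tissues and tumours, measured 477, 588 and 557 FPKM in DMSO+EV, 408, 405 and 361 in OL+EV, and 436, 435 and 462 in OC. The 3 groups did not overlap, with OL+EV lowest and OC between. PKM fell by 0.46 in OL+EV (SE 0.11, limma adjusted p = 0.00355) and by 0.28 in OC (adjusted p = 0.0403), which became 0.017 under quantile normalisation. The latter call ended in 12 of 21 alternatives, among them those without DMSO+EV replicate 2 or 3, OL+EV replicate 1 or 2, or OC replicate 1 or 2 (adjusted p of 0.157, 0.106, 0.0614, 0.0627, 0.0953 and 0.104), within a range of 0.0120 to 0.848. The difference between OC and OL+EV was 0.18 (95% interval -0.058 to 0.42, adjusted p = 0.170).

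LDHA, the lactate dehydrogenase subunit that favours lactate production, measured 505, 611 and 681 FPKM in DMSO+EV, 281, 277 and 247 in OL+EV, and 281, 292 and 315 in OC. Both treated groups were well below DMSO+EV and met each other at 281 FPKM. LDHA fell by 1.15 in OL+EV (SE 0.12, limma adjusted p = 4.609e-06) and by 1.01 in OC (adjusted p = 7.12e-06). The difference between them was 0.14 (95% interval -0.12 to 0.41, adjusted p = 0.333). LDHB, the subunit that favours pyruvate, stood at 256, 128 and 55.2 FPKM in the same order. The ratio of LDHA to LDHB was 2.29, 2.32 and 2.40 in DMSO+EV, 2.105, 2.05 and 2.12 in OL+EV, and 5.72, 5.60 and 4.91 in OC. The ratio was thus highest in OC although the sum of both was lowest there, at 351 ± 25.4 FPKM against 397 ± 29.1 in OL+EV and 855 ± 121 in DMSO+EV.

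**Figure D2:**
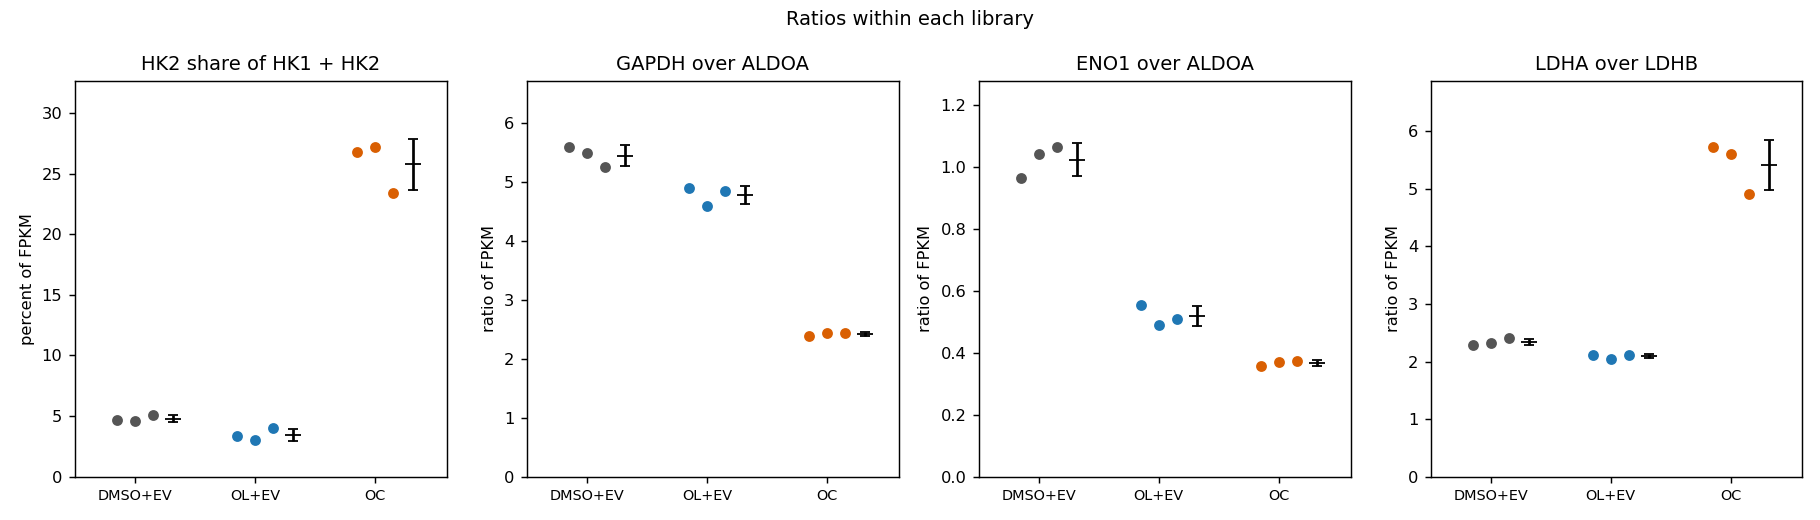
Ratios within each library for the 3 groups; points are libraries and bars the mean ± SD. The HK2 share of HK1 and HK2 is 23.4 to 27.2% in OC and at most 5.11% elsewhere, and GAPDH over ALDOA is 2.38 to 2.44 in OC against 4.60 or more elsewhere.

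With osimertinib and cIGF1R, in OC against DMSO+EV, HK2 rose, 6 genes fell (HK1, PFKP, GAPDH, ENO1, PKM and LDHA), and SLC2A1, ALDOA and PGK1 did not pass the test, with PKM and ALDOA changing sign under quantile normalisation. Of all tested genes 69.0% were called in this comparison, 33.1% as higher and 35.8% as lower, so 7 called genes of 10 is near the background. The share without overlap was 69.8%, with 33.3% above and 36.5% below, against 7 of 10 here. Of the 5 upper genes 1 rose and 2 fell, and of the 5 lower genes 4 fell. The median log2 fold change was -0.15 for the upper genes and -1.01 for the lower ones, beside -0.025 over all tested genes. All 13 mRNAs of mitochondrial DNA fell in OC against each other group, and their part in these results was not tested beyond the scaling without mitochondrial genes, under which the 10 genes kept their direction in this comparison.

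The direct comparison of OC with OL+EV called 5 of the 10 genes, 3 higher (SLC2A1, HK2 and PGK1) and 2 lower (GAPDH and ENO1). The share called among all tested genes was 60.7%, with 25.9% higher and 34.8% lower. Ranges did not overlap for 6 of the 10, PKM being the addition, against 68.1% of all tested genes, with 29.6% above and 38.4% below. The median log2 difference was 0.14, against -0.087 over all tested genes. The 3 comparisons share libraries pairwise, so their values are given side by side and not as independent evidence.

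**Figure D3:**
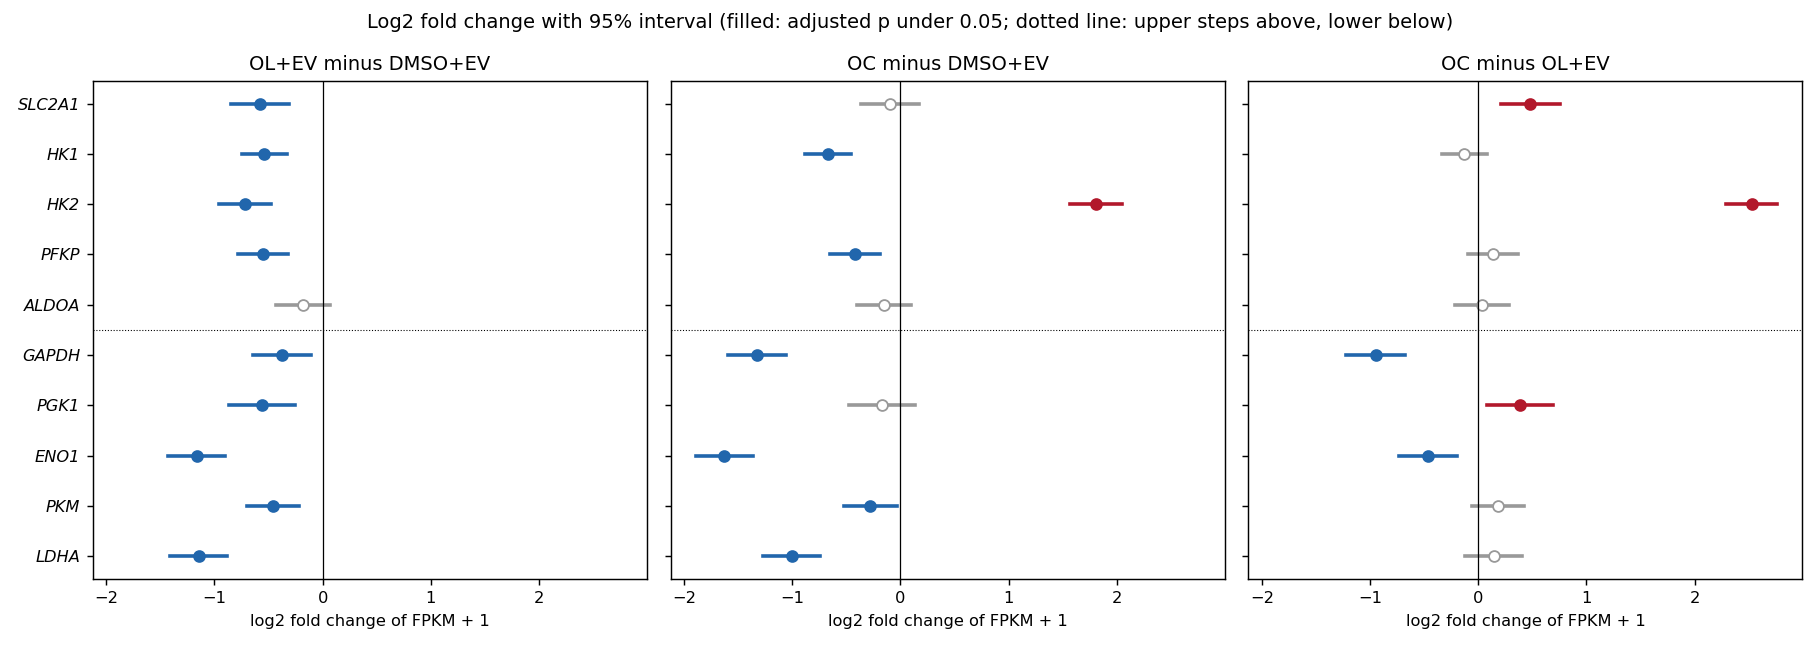
Log2 fold change of FPKM + 1 for each of the 10 genes in the 3 comparisons, with 95% intervals from limma. In OL+EV all values lie between -1.16 and -0.18, whereas in OC against DMSO+EV they run from -1.63 for ENO1 to 1.81 for HK2.

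Upper and lower steps were then set against each other. The mean log2 level of the 5 lower genes minus that of the 5 upper genes was 3.46, 3.49 and 3.50 in the libraries of DMSO+EV, 3.28, 3.29 and 3.21 in OL+EV, and 2.40, 2.44 and 2.69 in OC. The balance was thus lowest in OC, and the groups did not overlap. Relative to DMSO+EV the lower steps moved by -0.23 more than the upper ones in OL+EV and by -0.98 in OC, and OC minus OL+EV was -0.75. These are differences of means. The medians of the upper and lower genes were close in OL+EV against DMSO+EV, at -0.55 and -0.56. Between OC and OL+EV they were close as well, at 0.135 and 0.142. There GAPDH and ENO1 were lower, while PGK1, PKM and LDHA had positive values, so the lower genes did not move as a set. No p is given, because the genes were chosen with results known. The balance was also computed without HK2. Without it the balance was 2.53, 2.54 and 2.57, then 2.28, 2.27 and 2.26, then 1.91, 1.95 and 2.15, and the differences became -0.28, -0.55 and -0.27, larger in size in OL+EV and smaller in both comparisons with OC. Without HK2 the groups still did not overlap.

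Other genes of glucose metabolism were counted from a list of 77, of which 73 were in the table and 57 were tested. In OL+EV 11 rose and 17 fell, in OC against DMSO+EV 18 rose and 20 fell, and between OC and OL+EV 18 were higher and 18 lower. These counts, 28, 38 and 36 of 57, are near the shares called among all tested genes. Among 9 other glucose transporters with a row, 4 were tested. SLC2A12 rose from 0.874 ± 0.135 FPKM to 7.48 in OC (limma log2 fold change 2.18, adjusted p = 6.228e-10), and SLC2A10 rose from 1.37 to 3.31 in OL+EV and 3.99 in OC. The neuronal transporter SLC2A3 was at most 0.887 FPKM in any library and was not tested.

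The other upper enzymes were 7 tested genes, of which 1 rose and 4 fell in OL+EV, and 3 rose and 4 fell in OC against DMSO+EV. GPI, which turns glucose 6-phosphate into fructose 6-phosphate, fell from 78.2 to 53.9 and 49.4 FPKM. TPI1, which interconverts the triose phosphates, fell from 451 to 273 in OL+EV and was at 286 FPKM in OC. The brain aldolase ALDOC rose in OC, to 16.8 from 8.90 FPKM (limma log2 fold change 0.85, adjusted p = 8.933e-06). The enzymes of fructose 2,6-bisphosphate, the activator of phosphofructokinase, included PFKFB3, which strongly favours its synthesis. PFKFB3 measured 8.22, 8.90 and 9.78 FPKM in DMSO+EV, 24.3, 22.6 and 21.3 in OL+EV, and 27.9, 26.8 and 22.9 in OC. It rose in both treated groups, by 1.25 (adjusted p = 3.173e-07) and 1.43 (adjusted p = 3.304e-08), where PFKP fell.

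Of 7 other lower enzymes tested, 1 rose and 4 fell in each treated group against DMSO+EV. PGAM1, the main phosphoglycerate mutase, fell in OL+EV, to 65.9 from 131 FPKM, and was at 131 in OC. PGAM4 is a near copy of PGAM1, so reads of the pair may have been split. BPGM, which makes 2,3-bisphosphoglycerate, rose from 7.49 to 15.5 and 21.6 FPKM, and the muscle enolase ENO3 fell in OC to 1.35 from 4.84.

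Of 4 tested genes of lactate transport, 1 rose and 2 fell in OL+EV, 1 rose and 1 fell in OC against DMSO+EV, and 2 were higher and 2 lower between OC and OL+EV. SLC16A1 (MCT1) measured 11.1, 13.0 and 16.3 FPKM in DMSO+EV, 7.58, 6.49 and 5.58 in OL+EV, and 17.5, 18.3 and 18.2 in OC. The groups did not overlap, and OL+EV was lowest. SLC16A1 fell by 0.93 in OL+EV (limma adjusted p = 4.707e-05) and rose by 0.41 in OC (adjusted p = 0.0123). SLC16A3 (MCT4), the exporter of highly glycolytic cells, was at 72.1, 49.8 and 82.2 FPKM in DMSO+EV, OL+EV and OC. The difference between OC and OL+EV was 1.34 for SLC16A1 (adjusted p = 1.656e-06) and 0.71 for SLC16A3 (adjusted p = 6.446e-05).

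**Figure D4:**
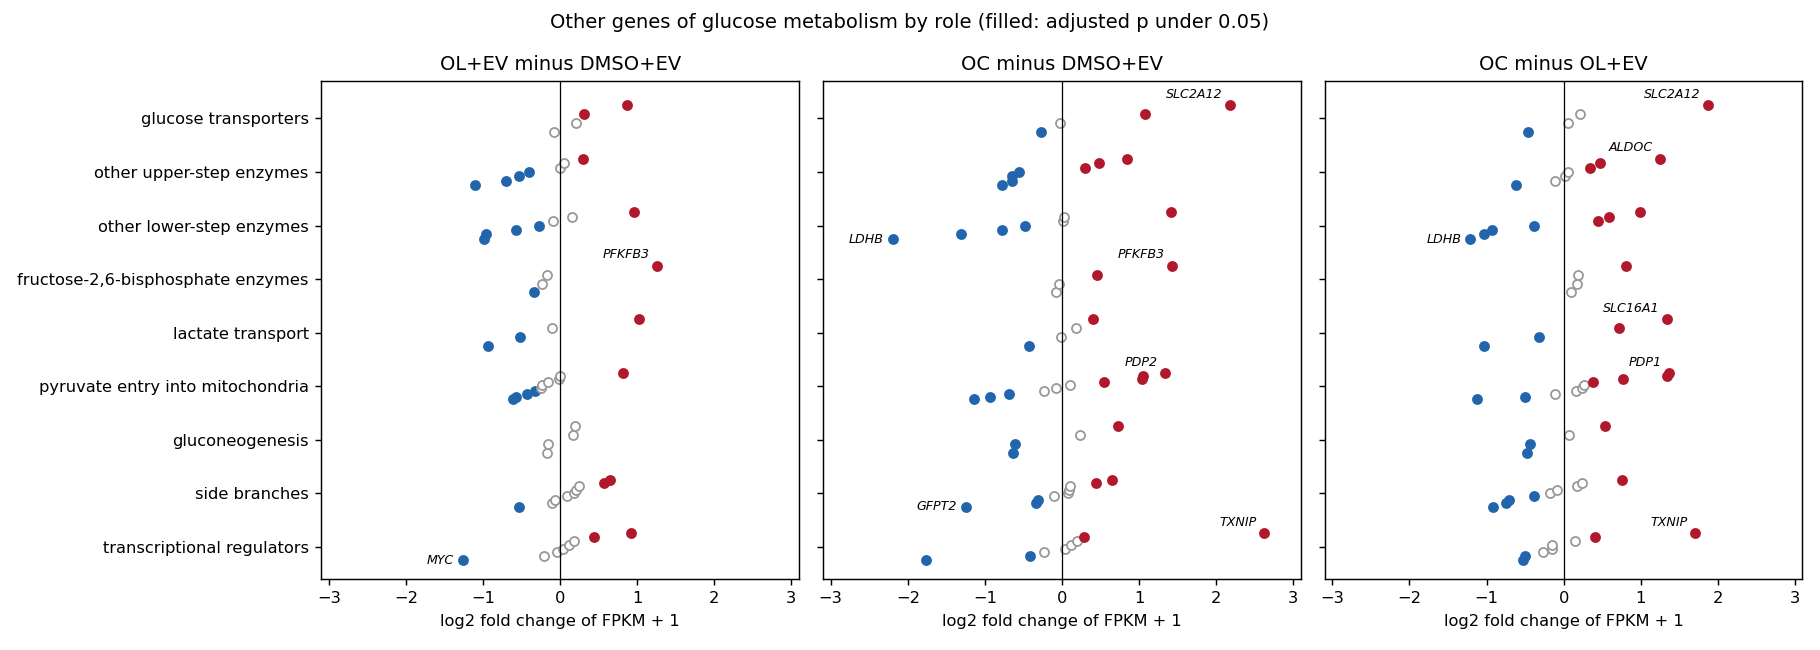
Log2 fold change of FPKM + 1 of 57 tested genes of glucose metabolism other than the 10, by role, in the 3 comparisons; filled points passed an adjusted p of 0.05, red higher and blue lower, open points did not. LDHB reaches -2.19 and TXNIP 2.62 in OC against DMSO+EV, with changes in both directions within most roles.

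At the entry of pyruvate into mitochondria, 10 genes were tested. In OL+EV 1 rose and 4 fell, and in OC against DMSO+EV 4 rose and 3 fell. PDP2, a phosphatase that activates pyruvate dehydrogenase, rose in OC from 2.25 to 7.21 FPKM (limma log2 fold change 1.33, adjusted p = 7.825e-08). PDK2, a kinase that inactivates the same complex, rose from 5.30 to 10.1 in OL+EV and to 11.4, 12.1 and 12.6 FPKM in the libraries of OC, and the pyruvate carrier subunit MPC1 fell in OC from 4.65 to 1.56. Of 9 tested genes of side branches, 2 rose and 1 fell in OL+EV. TKT, the transketolase of the pentose phosphate pathway, rose from 294 to 438 FPKM there and was at 232 in OC.

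Among 8 transcriptional regulators, 2 rose and 1 fell in OL+EV, and 2 rose and 2 fell in OC against DMSO+EV. MYC, which binds the E-box and is known to activate glycolytic genes including LDHA and ENO1, measured 23.5, 25.6 and 27.0 FPKM in DMSO+EV, 10.2, 10.2 and 9.57 in OL+EV, and 6.60, 6.65 and 6.98 in OC. The 3 groups did not overlap, and OC was lowest. MYC fell by 1.26 in OL+EV and by 1.77 in OC (limma adjusted p = 7.256e-10 for the latter). TXNIP, an arrestin-family inhibitor of glucose uptake, measured 14.5, 17.05 and 22.2 FPKM in DMSO+EV, 35.7, 35.1 and 31.8 in OL+EV, and 111, 113 and 119 in OC. The groups again did not overlap. TXNIP rose by 0.91 and 2.62 (adjusted p = 6.773e-10 for OC). HIF1A, the oxygen-regulated subunit of hypoxia-inducible factor 1, was at 20.8 to 32.5 FPKM in DMSO+EV, 21.2 to 23.1 in OL+EV and 26.6 to 31.3 in OC. DMSO+EV overlapped both treated groups, while all OC libraries were above all OL+EV libraries.

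The 10 genes were also followed over other scalings of the libraries, since FPKM is a share of each library. Each of the scalings moved the median of all tested genes by under 0.1. HK2 in OC, and the decreases of ENO1 and LDHA in both treated groups, passed the test under each alternative tried. ENO1 ran from -1.73 to -1.36 in OC, and LDHA from -1.12 to -0.81. DMSO+EV replicate 1, which had the highest mitochondrial share at 30.4%, was the lowest library of its group for each of the 10 genes. OL+EV replicate 3, with the highest share of its group at 25.6%, was lowest there for all of them but HK2. In OC the highest share was that of replicate 2, at 7.28%. That library was not the lowest of its group for SLC2A1, HK2, PFKP, PGK1, ENO1 and LDHA. The part of this share in the results was not tested.

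**Figure D5:**
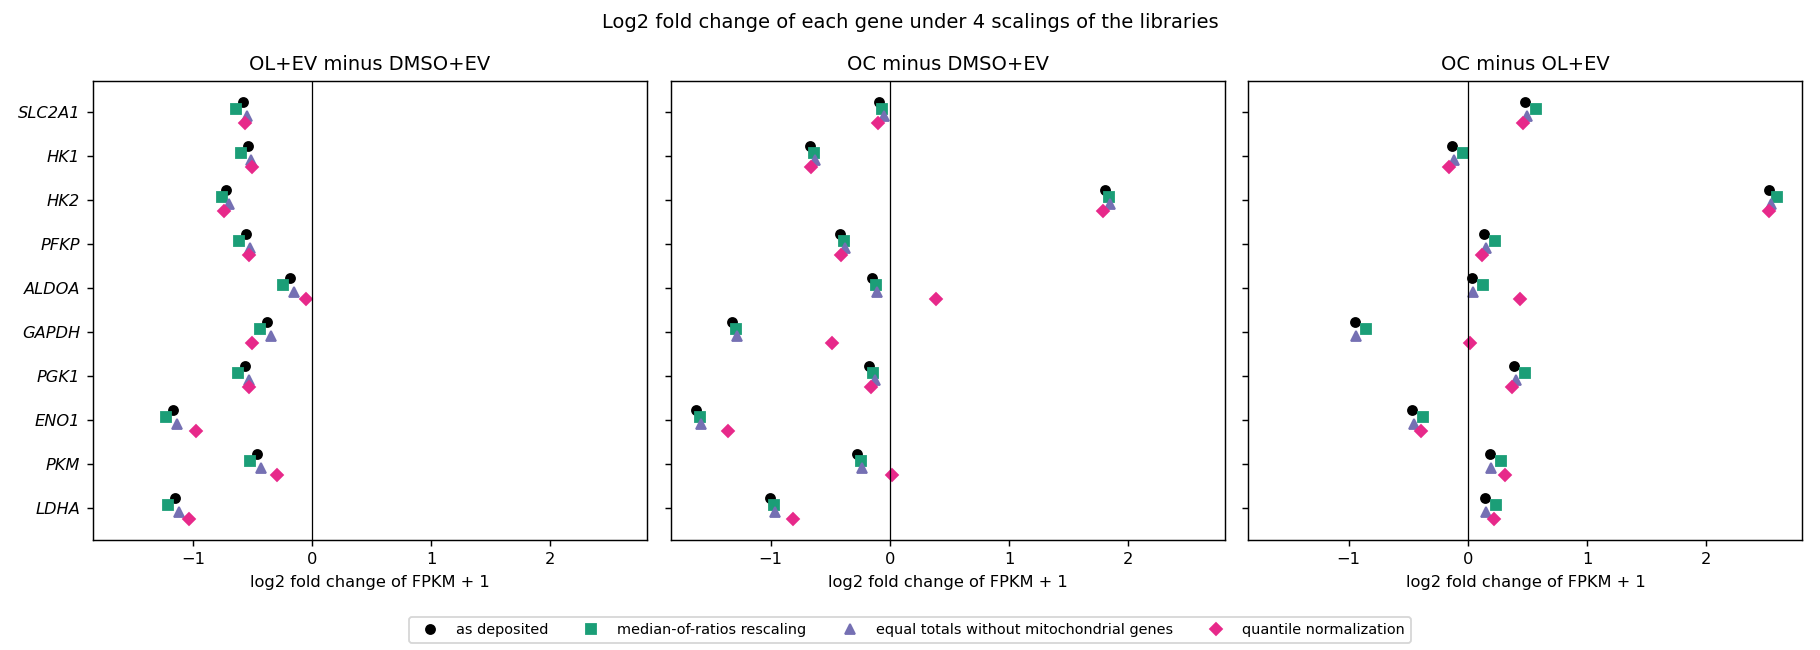
Log2 fold change of FPKM + 1 of the 10 genes under each scaling of the libraries in the 3 comparisons; symbols mark the scaling. HK2 and ENO1 keep their direction in each scaling shown, while GAPDH between OC and OL+EV moves from -0.95 to 0.020 under quantile normalisation.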

How the data were processed

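The analysis covers 9 RNA-seq libraries of H1975 cells; the other 12 of the 21 samples, made for circular RNA, were not analysed here. The deposited values are taken as FPKM made by the authors, from their range and unequal column totals, since the file names no unit. The tools STAR, edgeR and Bowtie2 2.1.0 and the build hg38 are named, without a role, per the submitters' processing notes. Counter, annotation, strand setting and filters: not given in the sources used here. FPKM is a share of each library, so abundant transcripts that change shift the others.

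Genes at 1 FPKM or more in at least 3 libraries (13775) were tested with limma 3.58.1 in R 4.3.3 on log2(FPKM + 1), with group as the only term, trended and robust variance, and Benjamini-Hochberg adjustment over all of them at 0.05. The 9 libraries were fitted together. On simulated data, genes given a log2 change of 1 were recovered in 96, 94 and 97 of 100 cases in OL+EV against DMSO+EV, OC against DMSO+EV and OC against OL+EV, and those given a change of 2 in 100 of 100. Of 205, 204 and 211 calls, 9, 10 and 14 were false. In each simulation 100 genes were changed by 1 and 100 by 2, all with a mean log2 level above 2 in DMSO+EV. All other genes had their DMSO+EV mean in every group. The figures therefore do not cover changes under 1, which many calls of the 10 genes had. Nor do they cover data in which most genes are called. Alternatives covered scaling, filter, pseudocount, variance model, replicate block and each library left out. The sum of ALDOA with LOC112694756, the omission of DMSO+EV replicate 2 with OC replicate 1, and the balance without HK2 were added after seeing the data. The genes and lists were chosen with earlier results of these data known. All 10 genes are named; of other roles, up to 3 called genes with the largest change per comparison, and paralogues of the 10. Promoters are those of RefSeq on GRCh38.p14. A gene that the naming rule covers is not reported here.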

Additional observations from a re-analysis of the deposited data

How the results depend on the processing

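Over 21 alternatives, 598 of 630 fold changes of the 10 genes kept their direction and their side of the threshold, 21 lost and 6 gained a call, and 5 reversed. The number called was 8 to 10 in OL+EV against DMSO+EV, 6 to 8 in OC against DMSO+EV and 4 to 6 in OC against OL+EV. Reversals under quantile normalisation were ALDOA (0.39, adjusted p = 0.00149) and PKM (0.017) in OC against DMSO+EV, and GAPDH (0.020) in OC against OL+EV. The cause was not tested. ALDOA between OC and OL+EV was -0.032 without OL+EV replicate 3 and -0.016 without OC replicate 3, within a range of -0.032 to 0.098 over single libraries left out. The balance of lower minus upper steps moved by more than the spread between libraries under a pseudocount of 5, to -0.32, -0.86 and -0.54 in the same order of comparisons. In OC against DMSO+EV it was -0.76 under quantile normalisation and -0.55 without HK2. In OC against OL+EV it was -0.57 under quantile normalisation, -0.27 without HK2 and -0.86 with a pseudocount of 0.1. Leaving out single libraries gave -0.24 to -0.20, -1.06 to -0.92 and -0.84 to -0.70.

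No shared effect of the replicate number was seen: the correlation of deviations over 9 same-numbered pairs ran from -0.31 to 0.036. Some pairs with different numbers had higher values, such as 0.33 for OL+EV replicate 3 with DMSO+EV replicate 1. OL+EV replicate 1 with DMSO+EV replicate 3 gave 0.22. These correlations cannot show whether the samples were paired by design. With the replicate block 8, 6 and 5 of the 10 genes were called, and the calls of GAPDH in OL+EV (adjusted p = 0.0613) and PKM in OC (0.0815) ended. Quantile normalisation, median-of-ratios scaling and equal totals without mitochondrial genes each gained a call for PKM between OC and OL+EV (adjusted p = 0.00317, 0.0386 and 0.0373). Without DMSO+EV replicate 2 and OC replicate 1 together, GAPDH in OL+EV (0.131), PKM in OC (0.271) and PGK1 between OC and OL+EV (0.0508) were not called. Precision is limited by 3 libraries a group and unknown depth.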

Other observations

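Among 8813 tested genes that reached a group mean of at least 5 FPKM, those with the nearest centred log2 profile over the 9 libraries were ACLY, SBK3 and COL4A2 for SLC2A1 (Euclidean distances 0.184, 0.195 and 0.239). For ENO1 they were ALYREF, POLD2 and SSRP1 (0.131, 0.139 and 0.166). For HK2 they were TAP2, INSIG1 and KIAA0040 (0.416, 0.442 and 0.452). The profiles were not scaled, so distances grow with the size of a gene's changes and are not compared between genes. These are descriptions of likeness over 9 libraries that share groups.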
